A study of Mus musculus with 4 samples.

Results

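Airway antimicrobial secreted proteins were represented by 8 genes, found by symbol among 22547 features: Bpifa1, Bpifb1, Reg3g, Reg1, Ltf, Lcn2, Dmbt1 and Pigr. All 8 had UMIs (unique molecular identifiers, 1 per captured RNA molecule) in all 4 libraries, apart from totals as low as 1 UMI for Dmbt1 at day 20. The samples came from lungs of Gramd2creERT2;mTmG mice, in which a tamoxifen-dependent Cre driven by Gramd2, a gene of alveolar type I cells, switches a membrane tdTomato reporter to membrane EGFP. Day 0 was freshly sorted GFP+ lung cells. Days 8, 13 and 20 were organoids grown from such sorted cells together with MLg mouse lung fibroblasts in Matrigel, with an inhibitor of the TGF-beta receptor (SB 431542) in the medium, and enriched for EpCAM+ cells before capture. All groups shared the genotype, and the labels give no untreated or unsorted group. Age, sex, tamoxifen dose and the number of mice are not stated in the labels. Each day was 1 library, so differences between days cannot be told apart from differences between cultures or captures, no test was possible, and every interval below is a 95% interval for counting error only.

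These proteins are the secreted chemical layer of mucosal defence. Secretory cells of the airway surface and its glands release proteins that bind bacterial surface molecules, withhold iron or kill bacteria, and they carry antibodies from the tissue into the lumen. Ltf and Lcn2 are also classical cargo of neutrophil granules, loaded while neutrophils mature in the bone marrow. Among the 8, Bpifa1 (SPLUNC1) and Bpifb1 (LPLUNC1) belong to the family of lipid-binding BPI-fold proteins, and Bpifa1 is among the abundant proteins of airway surface liquid. Reg3g is a C-type lectin that kills Gram-positive bacteria in the gut, and Reg1 is a related lectin best known from the pancreas. Ltf encodes lactoferrin, which binds free iron. Lcn2 encodes lipocalin 2, which binds bacterial iron carriers called siderophores. Dmbt1 encodes a scavenger receptor cysteine-rich protein that aggregates bacteria, and Pigr encodes the receptor that carries polymeric IgA and IgM across epithelia.

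Several of the genes are neighbours in the genome (GRCm38, GENCODE vM21 annotation). Bpifa1 (chr2:154142880-154149219, plus strand) lay 41598 bases from Bpifb1 (chr2:154190818-154220369, plus strand). Reg1 (chr6:78422711-78428667, plus strand) lay 37601 bases from Reg3g (chr6:78466269-78468872, minus strand). Lcn2 was at chr2:32384633-32388252 on the minus strand, Ltf at chr9:111019271-111042767, Dmbt1 at chr7:131032053-131121630 and Pigr at chr1:130826684-130852249, all 3 on the plus strand. The 250 bases before the annotated start of Bpifa1 (chr2:154142630-154142879), of its neighbour Bpifb1 (chr2:154190568-154190817) and of Reg3g (chr6:78468875-78469124, minus strand) are shown, 5′ to 3′ on the gene's strand, because Bpifa1 and Reg3g had the highest levels of the 8 in cultured secretory cells while Bpifb1 was under 100 CPM there at days 13 and 20. The sequences are from RefSeq, build GRCm38.p6. Capitals mark matches to the motifs named after them.
Bpifa1: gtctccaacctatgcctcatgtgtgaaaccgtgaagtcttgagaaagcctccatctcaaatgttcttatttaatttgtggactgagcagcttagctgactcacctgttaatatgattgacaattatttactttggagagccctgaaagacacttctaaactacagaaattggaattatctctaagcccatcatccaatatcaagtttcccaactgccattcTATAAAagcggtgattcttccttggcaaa
Bpifb1: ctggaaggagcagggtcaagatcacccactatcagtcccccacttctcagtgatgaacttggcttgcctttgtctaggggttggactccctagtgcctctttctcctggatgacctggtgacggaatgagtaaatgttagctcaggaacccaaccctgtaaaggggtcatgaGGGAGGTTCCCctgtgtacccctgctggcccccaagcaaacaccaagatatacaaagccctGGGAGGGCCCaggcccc
Reg3g: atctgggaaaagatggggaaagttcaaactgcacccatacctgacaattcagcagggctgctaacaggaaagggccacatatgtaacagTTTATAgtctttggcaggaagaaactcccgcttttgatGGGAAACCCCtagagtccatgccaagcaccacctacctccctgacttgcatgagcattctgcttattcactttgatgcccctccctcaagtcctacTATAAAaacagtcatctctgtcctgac

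Motifs were searched on both strands, and overlapping matches were kept. The TATA box letters TATAAA stood 29 bases before the Bpifa1 start, 27 bases before the Reg3g start and 30 bases before the Reg1 start, and were in 12.4% of 32841 promoter windows of the same length. Reg3g also held TATAAA on the other strand. The Bpifb1 window held no TATAAA. NF-kB-type letters (GGG and CC with any 5 bases between them) were in the Reg3g and Bpifb1 windows and in 45.8% of all windows, with a pair of overlapping matches in Bpifb1. STAT-type letters TTCNNNGAA were in 1 of the 8 windows found for 7 of the genes (7.02% of all windows), and C/EBP-type letters TTGCNNAA in 2 (9.57%). A match is a run of letters, not a shown binding site, and its absence from this window shows nothing about the factor. No window was found for Dmbt1.

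Levels are given as CPM, the summed UMIs of a gene scaled to a total of 1000000 UMIs over all cells of a class. Reads came from the 3′ end, so a molecule counts once whatever its length. Cells with at least 500 genes and at most 15% mitochondrial UMIs were kept, which left 7350 to 9311 cells a library with median depths of 2558.5 (day 0) to 17075 UMIs (day 8). Classes were set by single genes or short marker lists, and they overlap. Secretory cells had Scgb3a2 at 0.5% or more of their UMIs (123, 34, 444 and 125 cells at days 0, 8, 13 and 20). Basal cells had Krt5 at 0.05% or more (0, 40, 646 and 8 cells). AT2-like cells, the surfactant-making alveolar type II cells, had Sftpc at 5% or more (97, 334, 482 and 575 cells). Ciliated cells held at least 5 of 10 ciliary genes (607, 34, 139 and 63 cells), and the neutrophil lineage at least 4 of 14 genes (575 cells at day 0 and 8 or fewer later). Levels from classes of under 50 cells are shown and described beside other days, but they entered no ratio on their own.

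The classes carried their markers but were not free of RNA from other cells. All 8 secretory markers were detected in the secretory class at every day, with summed levels of 544856, 120293, 69671 and 115636 CPM. The secretory and basal lists include the class genes Scgb3a2 and Krt5, whose detection and part of the sums were fixed by the class rule. All 8 basal markers were detected in the basal class at day 13 (7828 CPM in sum), where 64 secretory cells were also basal and 39 were also ciliated. At least 4 of the 8 macrophage markers were present in 76 of 123, 11 of 34, 163 of 444 and 27 of 125 secretory cells at days 0, 8, 13 and 20, although the list's summed level stayed at 676 to 889 CPM there, against 8952 CPM in macrophage-like cells of day 0. At day 13, 155 of the 444 secretory cells lay between the Scgb3a2 threshold and 2 times it, and 197 further cells lay between 0.5 times the threshold and the threshold. The labels name the cells alveolar epithelial cells, while macrophage-like cells made up 1875 of 7350 kept cells at day 0 and 5391 to 6753 cells in the organoids. Between any pair of libraries, 19 to 30 kept cells shared a barcode (0.259 to 0.408%).

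Macrophage-like cells served as a comparison level for RNA from outside the cell, although macrophages can make Lcn2. They held Reg3g at 0.270, 29.9, 182 and 59.7 CPM and Bpifa1 at 0.540, 35.0, 43.7 and 31.9 CPM at days 0, 8, 13 and 20. Their Ltf was 0.0900, 0.908, 27.8 and 5.30 CPM, their Lcn2 4.50, 7.94, 20.2 and 15.2 CPM, and their Pigr 1.08, 2.05, 12.7 and 2.71 CPM. Bpifb1 stayed at 0.150 to 1.80 CPM there, and Reg1 and Dmbt1 at or below 0.294 CPM. These UMIs were unevenly spread: the median macrophage-like cell held none of any of the 5, 85 of 6404 cells reached 1000 CPM of Reg3g at day 13, and 1 cell held 1035 of the 2342 Bpifa1 UMIs at day 20. How much of them was free RNA was not tested. All 5 were highest at day 13, and levels of other classes are set beside these values below.

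**Figure D1:**
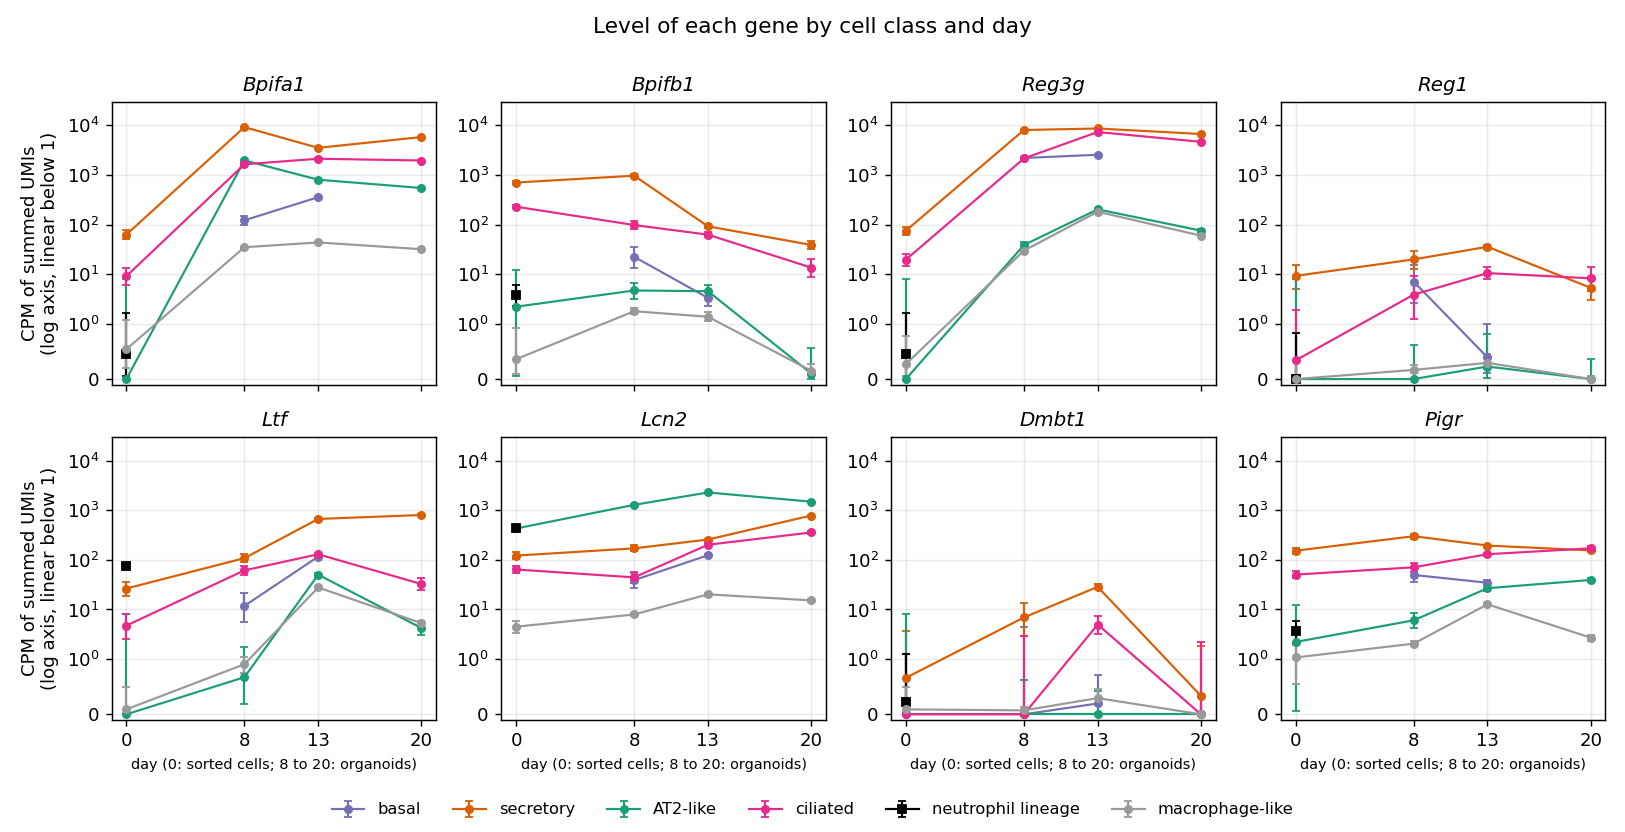
Level of each gene (CPM of summed UMIs, log axis that turns linear below 1) at days 0, 8, 13 and 20 in basal, secretory, AT2-like, ciliated, neutrophil lineage and macrophage-like cells, with bars for 95% Poisson intervals. Secretory cells stand highest of the classes drawn for Bpifa1 and Reg3g at every day, AT2-like cells for Lcn2 at the 3 culture days, and the Bpifb1 lines descend after day 8 while the Ltf line of secretory cells climbs to 800 CPM.

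Bpifa1 and Reg3g were the dominant members in cultured secretory cells. Bpifa1 had 62.8 CPM at day 0 (50.8 to 76.8), 9173 at day 8 (9000 to 9350), 3511 at day 13 (3475 to 3548) and 5791 at day 20 (5706 to 5878). Reg3g had 75.4 CPM at day 0 (62.2 to 90.5), 8027 at day 8 (7865 to 8192), 8608 at day 13 (8551 to 8666) and 6670 at day 20 (6578 to 6763). Both were low in the sorted secretory cells and high in all 3 organoid libraries, Bpifa1 most at day 8 and Reg3g at day 13. Day 13 was 55.9-fold above day 0 for Bpifa1 and 114-fold for Reg3g.

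Bpifb1, the neighbour of Bpifa1, was high at days 0 and 8 only. It had 703 CPM in day 0 secretory cells (662 to 747) and 965 CPM at day 8 (909 to 1024), but 92.2 CPM at day 13 (86.3 to 98.3) and 38.9 CPM at day 20 (32.2 to 46.7). Like Bpifa1 it was lower at day 13 than at day 8, but at day 20 Bpifa1 was higher and Bpifb1 lower than at day 13. Few cells carried the day 0 value: 31 of 123 secretory cells had Bpifb1, and 1 cell held 378 of the 1064 UMIs. At day 8, 3 of the 34 secretory cells held 57.7% of the 1116 UMIs. Without cells that also met another class, day 0 secretory cells still had 469 CPM and day 13 cells 95.6 CPM. The mean of the per-cell levels, which weights all cells equally, gave no 2-fold fall for Bpifb1 between days 0 and 13.

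The iron-binding pair climbed later. Ltf had 26.4 CPM at day 0 (18.9 to 36), 108 at day 8 (90 to 129), 666 at day 13 (650 to 682) and 800 at day 20 (769 to 833) in secretory cells. Lcn2 had 122 CPM at day 0 (105 to 141), 170 at day 8 (147 to 196), 256 at day 13 (246 to 266) and 780 at day 20 (749 to 813). Both were highest at day 20, Ltf with its main step by day 13 and Lcn2 with its main step after it. The day 0 Lcn2 value rested on 1 cell with 152 of the 184 UMIs, a cell that also met another class: secretory cells that met no other class had 20.9 CPM.

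Pigr, Reg1 and Dmbt1 were the small members. Pigr, the antibody carrier, had 153, 299, 194 and 155 CPM in secretory cells at days 0, 8, 13 and 20, and days 0 and 20 differed by less than counting error. The median log2 ratio of all genes for day 20 against day 0 was 0.90, so the Pigr ratio (0.02) lay below it. Reg1 had 9.25, 19.9, 35.7 and 5.33 CPM. Dmbt1 had 0.661, 6.92, 28.6 and 0.333 CPM, from 1, 8, 289 and 1 UMIs. Both were highest at day 13 and came from few cells there: Reg1 UMIs lay in 35 of 444 cells with 84 of 361 UMIs in 1 cell, and Dmbt1 UMIs in 32 cells with 81 of 289 in 1 cell.

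Set against AT2-like cells of the same library at day 13 (444 against 482 cells), secretory cells were higher in 7 of the 8 genes and lower in 1. To be called higher or lower, a gene needed a ratio of 2-fold or more, 20 CPM or more on its larger side and an interval clear of 1, which held upward for 12.8% and downward for 6.53% of 5968 genes. The median log2 ratio of the 8 was 4.03, against 0.33 for all genes. Reg3g had 8608 CPM in secretory and 203 CPM in AT2-like cells (log2 ratio 5.41, interval 5.34 to 5.48), and the AT2-like level was close to the 182 CPM of macrophage-like cells. Bpifa1 had 3511 CPM in secretory and 801 CPM in AT2-like cells (log2 ratio 2.13, 2.10 to 2.17). Ltf had 666 CPM in secretory and 50.2 CPM in AT2-like cells (log2 ratio 3.73, 3.59 to 3.87), and 295 of the 442 AT2-like UMIs sat in 1 cell.

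The remaining secreted members showed the same direction with fewer molecules. Bpifb1 had 92.2 CPM in secretory and 4.55 CPM in AT2-like cells, a 20.3-fold ratio. Pigr had 194 CPM in secretory and 26.8 CPM in AT2-like cells, a 7.24-fold ratio, with 12.7 CPM in macrophage-like cells beside it. Reg1 had 361 UMIs in secretory and 2 in AT2-like cells (log2 ratio 7.30, 5.43 to 10.35). Dmbt1 had 289 UMIs in secretory and 0 in AT2-like cells and was at least 83.9-fold higher, with the AT2-like side set to a floor of 3 UMIs.

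Lcn2 was the exception and the alveolar member. It had 256 CPM in secretory and 2273 CPM (2242 to 2305) in AT2-like cells at day 13, 8.87-fold lower in secretory cells (log2 ratio -3.15, -3.21 to -3.09). AT2-like cells held Lcn2 at 428 CPM at day 0 (370 to 493), 1281 at day 8 (1252 to 1310), 2273 at day 13 and 1484 at day 20 (1460 to 1508). It was already present in the sorted AT2-like cells and highest in the middle of the culture. At day 20 secretory cells had 780 CPM and AT2-like cells 1484 CPM (log2 ratio -0.93, -0.99 to -0.86), short of 2-fold. Leaving secretoglobin, surfactant protein, mitochondrial and member genes out of the totals, or averaging per-cell levels, put that day 20 ratio past 2-fold.

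At day 20 (125 secretory against 575 AT2-like cells) secretory cells were higher in 5 of the 6 genes that reached 20 CPM, where 10.0% of 5788 genes were higher and 6.27% lower. Reg3g had 6670 CPM in secretory and 75.5 CPM in AT2-like cells, 88.3-fold, and Ltf had 800 CPM in secretory and 4.22 CPM in AT2-like cells, 189-fold. Bpifa1 had 5791 CPM in secretory and 545 CPM in AT2-like cells, 10.6-fold, and Pigr 155 CPM in secretory and 39.3 CPM in AT2-like cells, 3.94-fold. Bpifb1 had 117 UMIs in secretory and 1 UMI in AT2-like cells (log2 ratio 8.60, 6.09 to 13.91). At day 8 the 34 secretory cells were too few to compare.

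Shares of cells gave the same order once cells were thinned to 2000 UMIs each. Reg3g was found in 77.7% of thinned secretory cells at day 13 (83.8% unthinned), against 11.7% of AT2-like cells (42.3% unthinned) and 12.8% of macrophage-like cells (39.4% unthinned). The median depths were 16683, 15655 and 8291 UMIs in secretory, AT2-like and macrophage-like cells. The AT2-like share of Reg3g thus lay near the macrophage-like one. Lcn2 was found in 28.5% of thinned secretory cells (61.3% unthinned), 82.0% of thinned AT2-like cells (94.4% unthinned) and 2.29% of macrophage-like cells (8.09% unthinned). Ltf was found in 38.5% of thinned secretory cells (63.7% unthinned), against 2.30% of AT2-like cells (9.96% unthinned) and 1.87% of macrophage-like cells (5.68% unthinned), so that AT2-like cells again lay near the macrophage-like share.

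Basal cells, the stem cells of the airway lining, had lower RNA levels of these genes. At day 13 (646 basal against 444 secretory cells) all 8 were lower in basal cells, where 5.85% of 6098 genes were lower and 4.41% higher. The median log2 ratio of the 8 was -2.91, against 0.08 for all genes. Reg3g was the least distant in ratio among the airway lectins and BPI-fold proteins: 2546 CPM (2515 to 2577) in basal and 8608 CPM in secretory cells, 3.38-fold lower. It was well above the 182 CPM of macrophage-like cells, was found in 52.5% of thinned basal cells (73.7% unthinned), and reached 1000 CPM in 255 of 646 cells.

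The other members set basal and secretory cells farther apart, except Lcn2. Bpifa1 had 356 CPM in basal and 3511 CPM in secretory cells, 9.85-fold lower, but the 575 basal cells that met no other class held 674 of its 3628 basal UMIs. Between cells of 1 class Bpifa1 had 77.9 CPM in basal and 3688 CPM in secretory cells (log2 ratio -5.57), with 43.7 CPM in macrophage-like cells. Bpifb1 had 3.34 CPM in basal and 92.2 CPM in secretory cells, 27.6-fold lower. Ltf had 116 CPM in basal and 666 CPM in secretory cells, 5.74-fold lower, and Pigr 34.6 CPM in basal and 194 CPM in secretory cells, 5.61-fold lower. Lcn2 had 124 CPM in basal and 256 CPM in secretory cells, 2.07-fold lower and just past the 2-fold line. Between cells of 1 class the levels were 80.3 and 895 CPM for Ltf and 2051 and 8522 CPM for Reg3g in basal and secretory cells. Reg1 had 4 UMIs in basal and 361 in secretory cells (log2 ratio -6.51), and Dmbt1 2 UMIs in basal and 289 in secretory cells (log2 ratio -7.19, -10.24 to -5.32). Basal Reg1 (0.393 CPM) and Dmbt1 (0.196 CPM) were near the macrophage-like level of 0.294 CPM for each. Bpifb1 had 1.39 CPM in macrophage-like cells, and basal cells that met no other class held 6 of its 34 basal UMIs. At day 8 the 40 basal cells had Reg3g at 2192 CPM and Bpifa1 at 122 CPM.

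**Figure D2:**
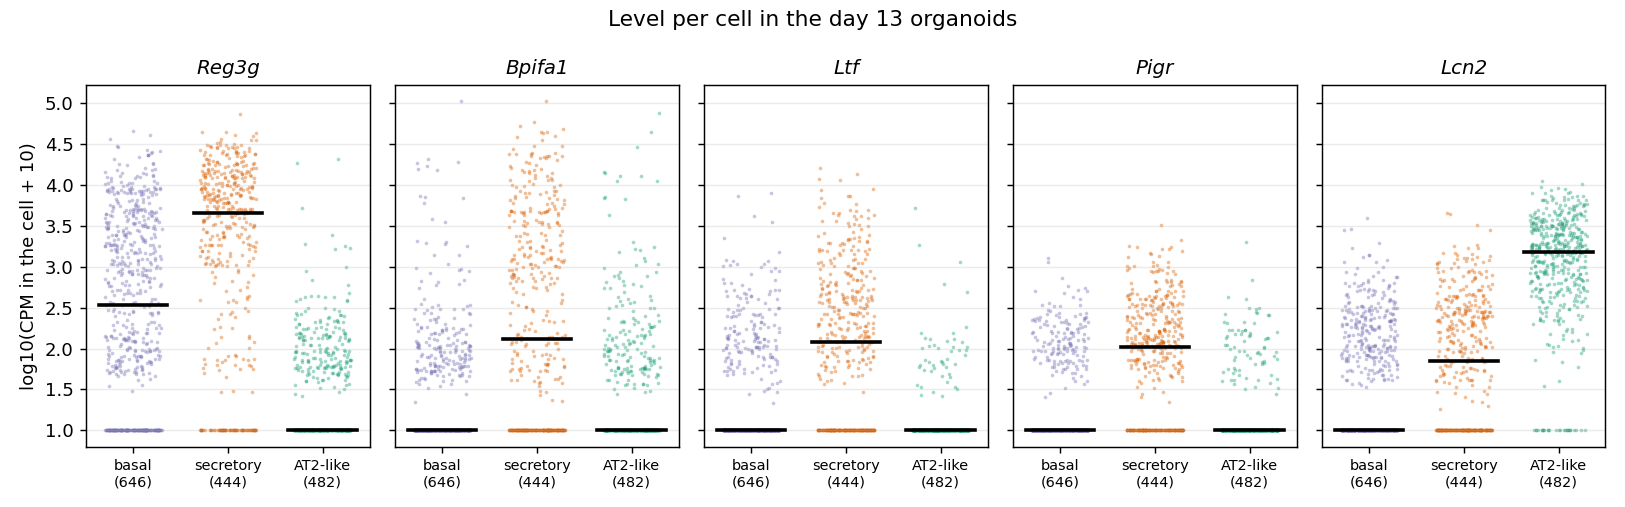
Level of 5 genes in each basal, secretory and AT2-like cell of the day 13 organoids (log10 of CPM + 10, so 1.0 is no UMI), with black lines for class medians and cell numbers in brackets. Reg3g is found in most basal and secretory cells, Bpifa1 and Ltf in 63.1 and 63.7% of secretory but 31.9 and 26.8% of basal cells, and Lcn2 is the 1 gene of the 5 with its highest median, 1524 CPM, in AT2-like cells.

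Among secretory cells the 2 dominant genes differed in how widely they were shared. At day 13 the median secretory cell had 4535 CPM of Reg3g and 122 CPM of Bpifa1. Reg3g reached 1000 CPM in 313 of 444 cells and Bpifa1 in 157. The 44 cells richest in each gene held 48.7% of Reg3g, 72.6% of Bpifa1, 65.0% of Ltf and 90% of Bpifb1 UMIs. At the extreme, 1 cell had Bpifa1 at 105921 CPM, and the highest Reg3g cell had 74766 CPM.

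Cells with much Bpifa1 mostly had much Reg3g. Of the 157 secretory cells of day 13 with at least 1000 CPM of Bpifa1, 140 (89.2%) also had 1000 CPM of Reg3g, a level reached by 70.5% of all secretory cells. Bpifb1 was nested within both: 13 of its 14 high cells were Bpifa1-high and 14 of 14 were Reg3g-high. Over 382 cells thinned to 2000 UMIs, the rank correlation was 0.46 for Bpifa1 with Bpifb1, 0.29 for Bpifa1 with Reg3g and -0.14 for Bpifa1 with Ltf, as a description of cells that share 1 library. In the 117 thinned cells of day 20 the value for Bpifa1 with Ltf was 0.46, so the sign for this pair differed between the 2 libraries.

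Ltf marked other cells than Bpifa1 at day 13. Of 75 secretory cells with at least 1000 CPM of Ltf, 14 (18.7%) were Bpifa1-high, against 35.4% of all secretory cells, and 44 (58.7%) were Reg3g-high, against 70.5%. At day 20, 17 of 22 Ltf-high cells (77.3%) were Bpifa1-high, against 51.2% of all, and 21 of 22 were Reg3g-high. The pairing with Bpifa1 was thus low at day 13 and high at day 20. Lcn2-high cells shared Ltf differently in the 2 libraries. At day 13, 10 of 26 (38.5%) were Ltf-high, against 16.9% of all secretory cells, and 11 of 26 (42.3%) were Reg3g-high, against 70.5%. At day 20, 2 of 23 (8.70%) were Ltf-high, against 17.6% of all, and 22 of 23 were Reg3g-high.

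Ltf-high secretory cells had little Scgb1a1, the club cell secretory protein. At day 13 the median Ltf-high cell had 176 CPM of Scgb1a1 and the median other secretory cell 248 CPM, but the highest value was 13753 CPM among the 75 Ltf-high cells and 317459 CPM among the other 369. Their summed levels were 489 and 11777 CPM. At day 20 the median was 1045 CPM in 22 Ltf-high cells and 27840 CPM in the other 103, with highest values of 21035 and 489590 CPM. Macrophage-like cells had median Scgb1a1 of 142 CPM at day 13 and 91.3 CPM at day 20, so a large part of both groups at day 13 lay near that level. Scgb3a1, a secretoglobin of larger airways, ran the other way at day 13, with medians of 27351 CPM in Ltf-high and 12419 CPM in other cells. At day 20 its medians were close, at 1729 CPM in Ltf-high and 1466 CPM in the other secretory cells. The Ltf cells were picked by a level of 1000 CPM set after earlier results were known, and the contrast is a description.

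**Figure D3:**
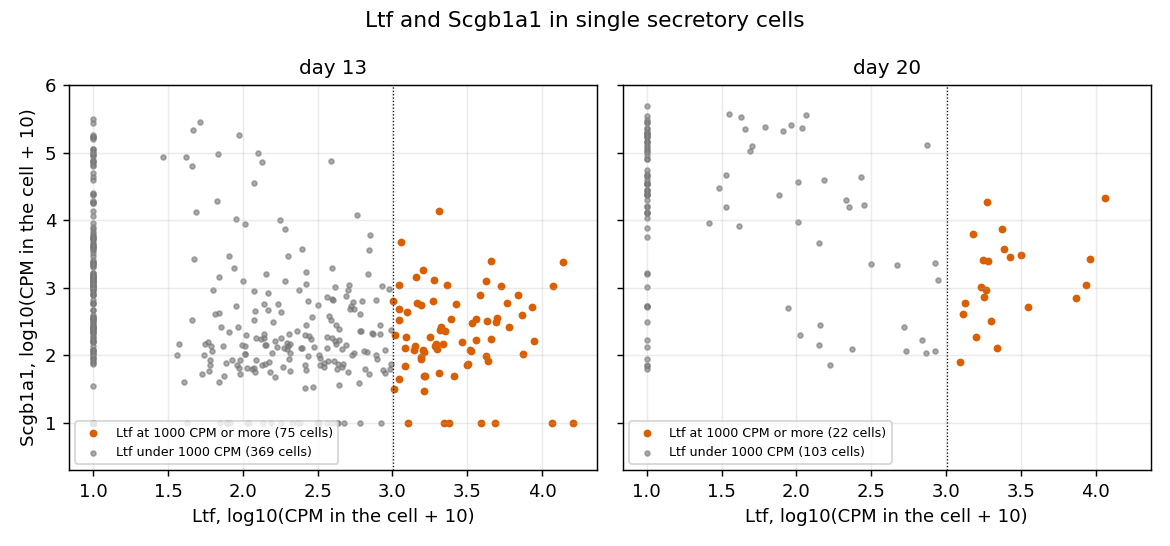
Scgb1a1 against Ltf in each secretory cell at days 13 and 20 (both axes log10 of CPM + 10, so 1.0 is no UMI), with Ltf-high cells in orange right of the dotted line at 1000 CPM. All the cells with the most Scgb1a1 lie left of the line, and no Ltf-high cell exceeds 13753 CPM of Scgb1a1 at day 13 or 21035 CPM at day 20.

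The lineage reporter divided the Reg3g cells. At day 13, 111 of 313 Reg3g-high secretory cells (35.5%) had EGFP at 1000 CPM or more, against 3 of 131 (2.29%) of the remaining secretory cells. Summed EGFP was 831 CPM in Reg3g-high and 71.0 CPM in the remaining secretory cells, and tdTomato, the reporter before recombination, was 137 and 205 CPM in the same groups. The 255 Reg3g-high basal cells showed the same order, with EGFP at 1344 CPM, against 274 CPM in the 391 remaining basal cells. Bpifa1-high secretory cells went the other way, with EGFP at 1000 CPM in 24 of 157 (15.3%), against 90 of 287 (31.4%) of the remaining cells, and Ltf-high cells lay between (15 of 75, or 20.0%, against 99 of 369, or 26.8%). Only 26 of 6404 macrophage-like cells (0.406%) reached that EGFP level at day 13. At day 20 no secretory cell reached it, so the split could not be looked at again.

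AT2-like cells held Bpifa1 as a small, intense minority. The class had Bpifa1 at 0 CPM at day 0 (upper limit 8.18), 1959 at day 8 (1924 to 1995), 801 at day 13 (782 to 820) and 545 at day 20 (531 to 560), far above the 31.9 to 43.7 CPM of macrophage-like cells in culture. Yet the median AT2-like cell had none at any day. Cells with at least 1000 CPM numbered 49 of 334, 22 of 482 and 17 of 575 at days 8, 13 and 20, and the 10% of cells with most Bpifa1 held 96.0, 97.7 and 99.8% of the UMIs.

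These Bpifa1-high AT2-like cells carried more of an airway mucin. Muc5b, a gel-forming airway mucin, had 138, 135 and 207 CPM in them at days 8, 13 and 20, against 40.0, 44.6 and 41.0 CPM in the remaining AT2-like cells. Sftpc, the class gene, was somewhat lower at 121740, 151899 and 153328 CPM, against 133411, 156190 and 200393 CPM. Scgb1a1 was higher at day 8 (21896 against 9125 CPM) and day 13 (34559 against 14833 CPM) but not at day 20 (23764 against 26087 CPM). EGFP was low in them at 45.4, 141 and 24.6 CPM, against 383, 485 and 228 CPM. At least 4 macrophage markers were present in 9 of 49, 6 of 22 and 1 of 17 of these cells. At day 20 the 17 cells also held 560 of the 751 Reg3g UMIs of the AT2-like class. Cells with doublet scores high enough to be marked numbered 7 of 49, 1 of 22 and 4 of 17 in them, against 23 of 285, 53 of 460 and 47 of 558 of the remaining AT2-like cells.

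Organoid AT2-like cells were first set against the sorted ones. At day 8 (334 cells) against day 0 (97 cells), Bpifa1 was at least 294-fold higher, Reg3g at least 5.81-fold and Lcn2 2.99-fold, where 10.9% of 6355 genes were higher and 22.6% lower. The sides at 0 were set to 3 UMIs, which is 6.65 CPM at day 0. The Lcn2 gain spread over the class: the median cell had 275 CPM at day 0 and 486 CPM at day 8, and cells with 1000 CPM made up 11 of 97 at day 0, 114 of 334 at day 8, 297 of 482 at day 13 and 270 of 575 at day 20.

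Among changes of AT2-like cells from day 8 to day 13, those of Reg3g, Ltf and Pigr had the direction seen in macrophage-like cells. That of Bpifa1 had not. At day 13 against day 8, Reg3g was 5.24-fold, Ltf 74.7-fold and Pigr 4.43-fold higher and Bpifa1 2.45-fold lower, where 1.49% of 5303 genes were higher and 1.73% lower. Ltf counted 4 UMIs at day 8 (log2 ratio 6.22, 4.86 to 8.10), and 295 of its 442 UMIs at day 13 lay in 1 cell. For Reg3g and Bpifa1 the top cell of day 13 held 514 of 1783 and 2479 of 7047 UMIs. Over the same interval macrophage-like cells had Reg3g at 182 CPM at day 13 and 29.9 CPM at day 8, Ltf at 27.8 and 0.908 CPM, and Pigr at 12.7 and 2.05 CPM, but Bpifa1 at 43.7 and 35.0 CPM. With AT2-like cells of 4 or more macrophage markers left out, 1 of the 3 higher genes still met the 2-fold rule. Bpifa1 missed it with the class thresholds doubled. At day 20 against day 13, Reg3g was 2.68-fold and Ltf 11.9-fold lower, where 2.16% of 5220 genes were lower and 1.78% higher, and both were lower in macrophage-like cells too. Without AT2-like cells of 4 or more macrophage markers neither gene met the 2-fold rule, and with free RNA subtracted 1 of them did.

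Secretory cells at day 20 against day 13 (125 against 444 cells) were higher in Lcn2 and lower in Bpifb1, Reg1 and Dmbt1, where 3.20% of 5960 genes were higher and 3.83% lower. Lcn2 was 3.04-fold higher (780 against 256 CPM). Bpifb1 was 2.37-fold lower (log2 ratio -1.24, -1.53 to -0.96) and Reg1 6.71-fold lower. Dmbt1 had 1 UMI at day 20 and 289 at day 13 (log2 ratio -6.43, -11.73 to -3.94). Bpifa1 (log2 ratio 0.72), Reg3g (-0.37), Ltf (0.27) and Pigr (-0.33) moved by less than 2-fold. With a stricter limit of 5% mitochondrial UMIs, 1 of the 3 lower genes met the rule.

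Against day 0, secretory cells of day 13 were higher in 6 of the 8 and lower in Bpifb1, but 51.4% of 5958 genes were higher and 5.12% lower. Scgb1a1 alone took 509460 CPM of the day 0 class, against 9818 CPM at day 13. The 6 were Bpifa1, Reg3g, Reg1 (3.86-fold), Ltf (25.2-fold), Lcn2 (2.11-fold) and Dmbt1 (1 UMI at day 0). The Lcn2 ratio depends on the 1 day 0 cell named above: cells that met no other class had 265 CPM at day 13 and 20.9 CPM at day 0 (log2 ratio 3.67). The median log2 ratio of all genes was 1.02, and -0.21 when secretoglobin, surfactant protein, mitochondrial and member genes were left out of the totals. With those totals Lcn2 (log2 ratio 0.07) and Reg1 (0.94) missed the 2-fold rule, and Bpifa1 (4.80), Reg3g (5.83) and Ltf (3.65) met it. At day 20 against day 0 Bpifa1 (92.2-fold), Reg3g (88.5-fold), Ltf (30.3-fold) and Lcn2 (6.42-fold) were higher and Bpifb1 18.1-fold lower, where 45.0% of 5742 genes were higher and 5.14% lower. Pigr was within 2-fold in both (log2 ratios 0.35 and 0.02), below the median of all genes in each comparison (1.02 and 0.90).

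The ciliated class, named for cells that move mucus, showed large Bpifa1 and Reg3g levels in culture. Its rule counts detected genes, which depends on depth. Median depth was 3534, 32750, 32323 and 24328 UMIs at days 0, 8, 13 and 20. The summed ciliary genes made up a median of 1.28, 0.504, 0.619 and 0.683% of UMIs. At least 4 macrophage markers were present in 61 of 607, 17 of 34, 64 of 139 and 17 of 63 cells. How far the culture class was mixed with other cells was not tested. Reg3g had 19.6, 2149, 7311 and 4636 CPM at days 0, 8, 13 and 20, and Bpifa1 9.14, 1638, 2119 and 1951 CPM. Thinned shares of Reg3g were 0.217, 23.5, 73.7 and 62.7% (0.988, 29.4, 83.5 and 68.3% unthinned), with 12.8% in macrophage-like cells of day 13. The class overlapped the secretory one in 31 of 607, 3 of 34, 39 of 139 and 14 of 63 cells. Ciliated cells that met no other class had Reg3g at 5394 CPM at day 13 and 4717 CPM at day 20, but Bpifa1 at 936 and 191 CPM, so most of the day 20 Bpifa1 lay in the overlapping cells.

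Pooled over the cultures, 236 ciliated cells were set against 607 of day 0. Of the 8 genes, 5 were higher and 1 lower, where 11.1% of 7553 genes were higher and 18.5% lower. Reg3g had 5948 CPM in culture and 19.6 CPM at day 0, Bpifa1 2009 CPM in culture and 9.14 CPM at day 0, and Ltf 98.8 CPM in culture and 4.74 CPM at day 0. Lcn2 was 3.26-fold and Pigr 2.56-fold higher. The day 0 levels leaned on cells that also met another class, and 1 cell held 152 of the 189 Lcn2 UMIs. The 562 day 0 ciliated cells that met no other class held 7 of the 189 Lcn2 and 44 of the 149 Pigr UMIs. They held 1 of 58 Reg3g, 0 of 27 Bpifa1 and 2 of 14 Ltf UMIs. Bpifb1 was 3.95-fold lower (58.1 CPM in culture, 229 CPM at day 0), but 1 day 0 cell that was also secretory held 378 of its UMIs, and with cells of more than 1 class left out the direction turned to 18.3 CPM in culture and 1.76 CPM at day 0. Taken alone, days 13 and 20 each had 5 genes higher and 1 lower than day 0, where 11.5% of 7557 genes (day 13) and 9.57% of 7548 genes (day 20) were higher and 20.5% and 17.1% lower. With at most 5% mitochondrial UMIs, 3 genes rather than 5 were higher in the pooled cells.

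In the day 0 neutrophil lineage, Ltf and Lcn2 were the members present. Ltf had 76.4 CPM (68.4 to 85.0) in the 575 neutrophil lineage cells, against 1.67 CPM in the other 6775 kept cells, 45.7-fold, and Lcn2 435 CPM (415 to 455), against 32.3 CPM, 13.5-fold. Higher genes were 5.16% and lower genes 14.3% of 7397. Bpifb1 was 10.5-fold lower (3.87 against 40.7 CPM), and its direction turned when per-cell levels were averaged. The class held 13 of the 14 markers that set it (Mpo at 0), but also 7413 CPM of macrophage and 1810 CPM of lymphoid markers. At least 4 macrophage markers were present in 487 of the 575 cells, so that list does not separate this class from macrophages. The class may be mixed, and how far it is was not tested.

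Ltf sat in a handful of these cells. A set of 11 cells in which Camp and Ngp, granule proteins of maturing neutrophils, made up at least 0.2% of UMIs had Ltf at 1592 CPM, against 0.5 CPM in the other 564. Their values, cell by cell, were 3285, 1833, 828, 4003, 4762, 590, 1140, 635 and 584 CPM in 9 cells and 0 in 2. Lcn2 was wider, with 5695 CPM in the 11 cells (1560 to 16062 per cell) and 171 CPM in the other 564. The 11 cells had a median depth of 19099 UMIs, against 3956.5 in the other 564. All 11 held at least 4 macrophage markers, as did 476 of the other 564. Cd3d, a lymphoid marker, had 402 CPM in the 11 cells and 352 CPM in the others, with UMIs in 9 and 254 cells. Whether each of the 11 was a single cell was not tested. Mmp8, a collagenase of neutrophil granules, was 655 CPM in them, against 87.1 CPM in the others, and Retnlg, a gene of mature neutrophils, was 4485 CPM, against 1570 CPM, while Cxcr2, a receptor of mature neutrophils, was 163 CPM, against 260 CPM. All 3 are among the markers that set the class. Elane, a protease of the earliest granules, had 2 UMIs in the 11 cells.

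**Figure D4:**
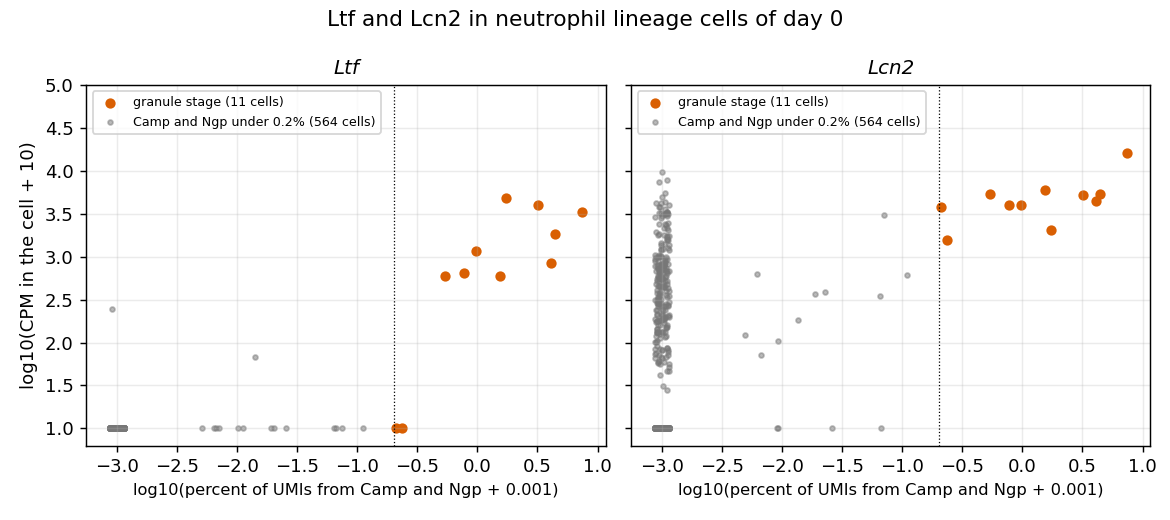
Ltf and Lcn2 in each neutrophil lineage cell of day 0 (log10 of CPM + 10, so 1.0 is no UMI) against the percent of its UMIs from Camp and Ngp (log10 of percent + 0.001), with a dotted line at 0.2%. Ltf appears in 9 of the 11 cells right of the line and almost nowhere left of it, whereas Lcn2 is also spread over cells with no Camp or Ngp.

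The cell types that held each gene's molecules differed between the organoids and the sorted cells. All class shares in this paragraph count only cells that met no other class. Neutrophil lineage cells held 88.4% of the 379 Ltf UMIs and 68.0% of the 2758 Lcn2 UMIs at day 0. In the organoids AT2-like cells held 82.8, 73.7 and 69.0% of Lcn2 UMIs at days 8, 13 and 20. Secretory cells that met no other class held 52.6% of the 11173 Ltf UMIs at day 13 and 45.9% of the 5174 at day 20. Bpifa1 was split at day 8, with 29.0% of 36177 UMIs in AT2-like, 25.8% in unclassed Epcam+ and 23.5% in secretory cells. Cells of more than 1 class held a further 6.07% at day 8. Secretory cells held 48.3 and 48.4% at days 13 and 20.

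Epithelial cells that met no class also held RNA of several of these genes. At day 20 the 249 unclassed Epcam+ cells held 40.7% of Ltf, 33.9% of Reg3g and 32.3% of Pigr UMIs. Their levels were 605 CPM for Ltf, 4653 CPM for Reg3g, 706 CPM for Lcn2 and 175 CPM for Pigr. Pigr did not differ beyond counting error between these cells, ciliated cells (171 CPM) and secretory cells (155 CPM) at that day. For Lcn2 at day 0, neutrophil lineage (435 CPM) and AT2-like cells (428 CPM) overlapped as well, and endothelial cells had 115 CPM.

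**Figure D5:**
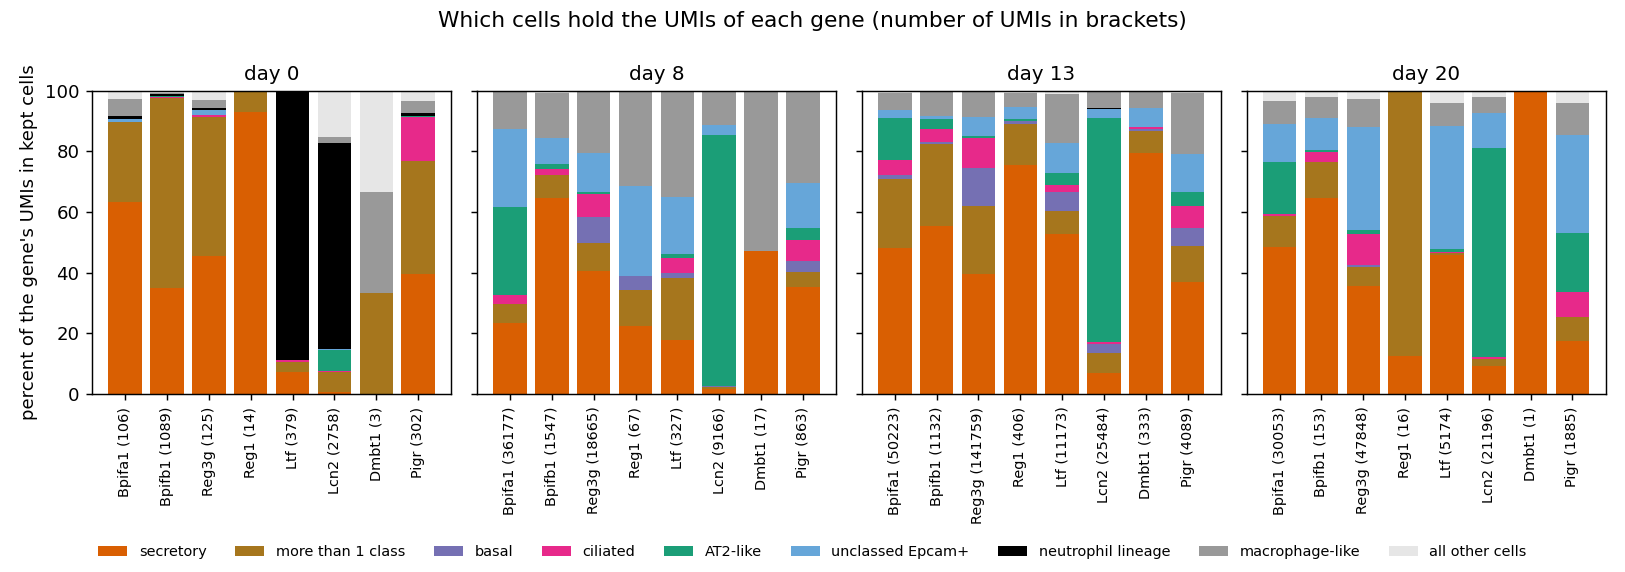
Percent of each gene's UMIs in kept cells that lay in each class, by day, with the gene's UMI total in brackets; cells meeting more than 1 class are drawn apart. Black (neutrophil lineage) fills most of the Ltf and Lcn2 bars at day 0, and green (AT2-like) most of the Lcn2 bars at days 8, 13 and 20.

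Close relatives of these genes were nearly silent. Reg3b, Reg3a and Reg2, relatives of Reg3g and Reg1, had 0 UMIs in secretory and AT2-like cells at all 4 days, and so did Bpifa2, Bpifb4 and Bpifb6 of the BPI-fold family. Bpifb5 had at most 22.2 CPM (10 UMIs, AT2-like cells of day 0), and Bpifb2 had 37 UMIs in AT2-like cells of day 13. Among 46 other secreted defence genes, 17 reached 20 CPM in secretory or AT2-like cells at day 13, of which 6 were higher and 6 lower in secretory cells (median log2 ratio 0.17, against 0.33 for all genes). The 46 include Scgb3a2, the gene that sets the secretory class. Its side here and in the basal comparison below was largely fixed by the class rule. Scgb3a1 was 86.7-fold higher (29888 against 345 CPM). The lysozymes Lyz1 and Lyz2 were 16.8-fold and 16.4-fold lower, and the surfactant collectins Sftpa1 and Sftpd 13.5-fold and 2.60-fold lower. In basal against secretory cells, 13 of 17 of these genes were lower and 1 higher (median -2.22, against 0.08 for all genes), among them Agr2, a mucin-folding enzyme, 7.27-fold and Wfdc2, a protease inhibitor, 2.19-fold.

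Regulators known to act on such genes did not move as one. Of 31 signalling genes and transcription factors, 16 reached 20 CPM in secretory or AT2-like cells at day 13, with 5 higher and 2 lower in secretory cells (median log2 ratio 0.40, against 0.33 for all genes). The airway factors Ehf (5.25-fold), Foxa1 (4.30-fold), Elf3 (3.87-fold) and Cebpb (2.34-fold) were among the higher ones, and Elf5 (6.72-fold) and Foxa2 (2.58-fold) were lower. Between basal and secretory cells of day 13, 0 of 15 met the 2-fold rule in either direction. At day 20 the interleukin 1 receptor Il1r1 was 9.82-fold higher in secretory than in AT2-like cells. Of genes for ligands and receptors of these proteins, Lrp2 (megalin, a receptor for lipocalin 2) had 2.38 CPM in secretory and 120 CPM in AT2-like cells at day 13, 50.6-fold lower.

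Antibody RNA was found in the sorted secretory class, of which 76 of 123 cells held at least 4 macrophage markers and 26 also met the neutrophil class. Jchain, the joining chain of polymeric IgA that Pigr carries, had 0.0990 CPM in secretory cells of day 13 and 344 CPM at day 0, and Igha, the IgA heavy chain, had 0 and 835 CPM, at least 2812-fold lower at day 13. Antibody transcripts are made by plasma cells, and how they came to be counted in the secretory class was not tested. Pigr itself had 194 CPM at day 13 and 153 CPM at day 0.

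The list of 16 neutrophil granule genes held markers that set the class. Of the 9 that did not, 7 reached 20 CPM at day 0 in the lineage or the other cells, and 4 were higher in the lineage and 0 lower (median log2 ratio 1.09, against -0.12 for all genes). Mmp9, a granule gelatinase, was 36.1-fold higher, Pglyrp1, a peptidoglycan-binding protein, 5.77-fold and Hp, haptoglobin, 2.13-fold. Pglyrp1 and Hp also varied in epithelium: in AT2-like cells of day 8 they were 31.3-fold and 12.9-fold above day 0.

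Genes with the most similar profiles were sought over 30 class-by-day profiles of at least 50 cells among 7339 genes, by Pearson's r of log2(CPM + 1). Bpifa1 ran closest to Klk13 (0.94), Aqp4 (0.94) and Lrrc26 (0.92), and Reg3g to Aqp4 (0.95), Agr2 (0.94) and Klk10 (0.92). Bpifb1 ran closest to Upk3a (0.87), Chad (0.84) and Clic6 (0.83), Pigr to Gabrp (0.95), Muc5b (0.92) and Adam28 (0.92), and Reg1 to Agr2 (0.82), Scgb3a1 (0.81) and Prorp (0.80). Lcn2 ran closest to Lrg1 (0.94), Tc2n (0.86) and Adgrg1 (0.86), Ltf to Pigr, Reg3g and Akr1c18 (0.84 each), and Dmbt1 to Sult1c1 (0.91), Kcne3 (0.73) and Serpinb11 (0.73). Among the 8 themselves Bpifa1 with Reg3g had 0.91, Reg3g with Pigr 0.85, Bpifa1 with its neighbour Bpifb1 0.46 and Lcn2 with Dmbt1 0.20. The profiles share libraries and free RNA, so these values describe the data and carry no test.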

How the data were processed

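Suspensions of single cells went into 10x Chromium 3′ libraries (v3.1 chemistry), per the labels' protocols, although their molecule field says nuclear RNA. The authors deposited raw UMI counts for each gene in each barcode, made with Cell Ranger 7.0.1 on mm10, per the submitters' processing notes. Any removal of free RNA or doublets before deposit is not given in the sources used here. The 4 libraries held 8902 to 11445 barcodes and 31850454 to 154258012 UMIs.

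Cells were kept with at least 500 genes and at most 15% mitochondrial UMIs. Counts were summed per class and library and scaled to CPM, with exact Poisson, conditional Poisson and Clopper-Pearson intervals (95%), which cover counting error only. Classes entered a comparison with at least 50 cells, and a side at 0 was set to 3 UMIs. Shares were taken after thinning to 2000 UMIs. The main values keep doublets: Scrublet's automatic threshold marked 255 cells at day 8 and 0 at the other days, so for the alternative the highest scores were removed (523 to 853 cells a library).

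The members, classes and lists were chosen with earlier results of these data known. Named are the 8 members, the 3 genes most like each in profile (at least 50 CPM in 1 profile, pseudocount 1; mitochondrial, ribosomal and predicted genes left out), genes of 4 lists (secreted defence, inducers, ligands and receptors, granule proteins) and class markers and reporters. The day 13 and day 20 comparisons with day 0 in secretory cells, the per-day ciliated comparisons the 1000 CPM cell groups and the granule list without class markers were added after seeing the data. Alternatives changed the totals, cell filters, class thresholds, doublets, free RNA, fold and CPM minimum. Scripts used Python 3.11.15, NumPy 2.4.6, SciPy 1.17.1, pandas 2.3.3, Scanpy 1.11.5 and matplotlib 3.10.9, and were tested on simulated data.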

Additional observations from a re-analysis of the deposited data

How the results depend on the processing

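No paired analysis was possible because each day is 1 library with no replicate number. Of the counts of members past 2-fold under the alternatives, 300 stayed within 1.5 times the main count and 24 did not. The ratios themselves were less stable. Of log2 ratios (members, with some medians of all genes), 665 were the same, 319 moved and 5 reversed. For members, moving meant leaving the main counting interval. Of secretory and AT2-like shares in culture after thinning to 1000 or 5000 UMIs, 40 stayed within the main interval and 40 did not. With at most 5% mitochondrial UMIs, lower members in secretory cells of day 20 against day 13 numbered 1 (3 in the main setting), and higher members in ciliated cells against day 0 numbered 3, pooled and at day 13 (5 in the main setting). For AT2-like cells of day 20 against day 13 (2 lower, 0 higher), 1 was lower with doublets removed, class thresholds doubled, cells of more than 1 class left out, free RNA subtracted or a 3-fold line, 0 were lower without cells of 4 macrophage markers, and 1 was higher with free RNA subtracted. For day 13 against day 8 (3 higher, 1 lower), 0 were lower with thresholds doubled or a 3-fold line, and 1 was higher without macrophage-marker cells. For ciliated cells against day 0 (1 lower), 0 were lower pooled and at day 13 without cells of more than 1 class, and pooled, at day 13 and at day 20 with per-cell means. Secretory against AT2-like cells of day 20 had 1 lower (0 in the main setting) with heavy genes (secretoglobins, surfactant proteins, mitochondrial genes and the members) out of the totals or per-cell means. Secretory cells against day 0 had 2 lower at day 20 (1) with heavy genes out, and 0 at day 13 (1) with per-cell means. The neutrophil lineage had 0 lower with per-cell means and 2 with a 5 CPM minimum (1). The Bpifb1 log2 ratio reversed in 5 cases: ciliated cells without those of more than 1 class (3.38 pooled, 3.40 at day 13), ciliated cells by per-cell means (1.2 pooled, 1.48 at day 13) and the neutrophil lineage by per-cell means (0.30). The cause was not tested, apart from the single day 0 cell named with the ciliated result. Settings that left under 50 cells gave no value: ciliated cells of day 20 with 5% mitochondrial UMIs, without cells of more than 1 class or without macrophage-marker cells, and secretory cells of day 0 with thresholds doubled (39 cells) or without macrophage-marker cells (47 cells). Depth limits the day 0 AT2-like class, where 3 UMIs equal 6.65 CPM.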
